A study of Mus musculus with 12 samples.

Results

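The 35 genes described here encode enzymes of cholesterol synthesis and of fatty acid synthesis, together with the proteins that control their transcription. They were taken by symbol from a list of pathway genes, which was chosen with earlier results of these data known. Each matched 1 of the 45792 genes in the deposited files. All 35 passed the filter on low counts, which kept 15706 genes. The cells were primary neural stem cells (NSCs) from the forebrain of neonatal mice, propagated without serum in a medium that contained EGF, FGF and insulin. RNA from 12 cultures was sequenced, 1 library per culture, in 3 groups of 4. WT cells came from C57BL/6J mice. Ncf1-/- cells lacked Ncf1, a subunit of the superoxide-producing NADPH oxidase, and came from mice backcrossed to C57BL/6J. A set of Ncf1-/- cultures received recombinant mouse Igfbp2, an IGF-binding protein, 48 h after plating, and RNA was taken 48 h later. The labels give its dose as 100 ng/ml, and the methods of the study give a lower one. The other set, called vehicle-treated here as in the methods, is labelled untreated. Libraries are numbered as in the labels, 1 to 4 for vehicle-treated Ncf1-/-, 5 to 8 for Igfbp2-treated Ncf1-/- and 9 to 12 for WT.

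Cholesterol is made from acetyl-CoA through mevalonate, squalene and a series of sterols, and most of the enzymes of this route are switched on together by the transcription factor Srebf2 when sterols in the endoplasmic reticulum run low. Scap escorts Srebf1 and Srebf2 from the endoplasmic reticulum to the Golgi, where they are cleaved to their active forms, and Insig1 and Insig2 hold the complex back when sterols are plentiful. Srebf1 acts mainly on fatty acid synthesis, in which Acly, Acaca and Fasn make palmitate and desaturases and elongases modify it. In the brain cholesterol is made locally, and oligodendrocytes, which build myelin, make large amounts of it and of long fatty acids.

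Expected counts summed to between 18201622 and 34086554 per library, and the lowest count of any member in any library was 63, that of Elovl7 in a treated library. Values are given as TMM-scaled CPM, counts scaled to library size after edgeR's correction for differences in RNA composition, and fold changes as the fitted log2 value with its SE. A gene was called at a Benjamini-Hochberg adjusted p under 0.05 in edgeR's quasi-likelihood test over all genes tested. The labels do not say whether the cultures of a group came from different animals. By the methods, the cells of each pup were cultured separately and vehicle-treated and Igfbp2-treated cultures came from the same Ncf1-/- animals. Ncf1 had 1 to 7 counts in every library and could not be used to check the genotype. Summed CPM of 4 Y-linked genes was between 105 and 116 in the vehicle-treated and between 7.79 and 9.18 in the Igfbp2-treated libraries. This goes against cultures of the same animals in both sets, and the treatment and the difference in sex-linked expression cannot be told apart. WT library 12 had 6.46 CPM of these genes, against 107 to 118 in the other WT libraries. A second sample sheet gives that library as an apocynin-treated WT culture. It was kept under its label, and results are given with and without it. A group of 5 short structural RNAs took 8.82% to 13.0% of the counts in the vehicle-treated, 13.2% to 19.9% in the Igfbp2-treated and 10.5% to 14.2% in the WT libraries.

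Promoters of the members were read from RefSeq on GRCm38.p6, as windows from 250 bases before to 50 bases after the gene's start there, and 28 of the 35 members had at least 1 such window. Gene coordinates given below are from GENCODE, whose starts can differ. The Tm7sf2 window lies inside the GENCODE gene (chr19:6062821-6068373, - strand), downstream of its start. Those of 4 genes are shown because their genes carry the results below. Hmgcs1 is the only member whose window held the sterol regulatory element searched for, Insig1 and Tm7sf2 were among the members with the largest rises, and Fasn among those that were lower in Ncf1-/- cells. The last 3 were chosen after their values were seen. Each window is written 5′ to 3′ on the gene's own strand, with capitals for the motifs TCACNCCAC (the sterol regulatory element), CCAAT (the CCAAT box), GGGCGG (the GC box) and CACGTG (the E-box), searched on both strands.
Hmgcs1 (chr13:119690101-119690400, + strand): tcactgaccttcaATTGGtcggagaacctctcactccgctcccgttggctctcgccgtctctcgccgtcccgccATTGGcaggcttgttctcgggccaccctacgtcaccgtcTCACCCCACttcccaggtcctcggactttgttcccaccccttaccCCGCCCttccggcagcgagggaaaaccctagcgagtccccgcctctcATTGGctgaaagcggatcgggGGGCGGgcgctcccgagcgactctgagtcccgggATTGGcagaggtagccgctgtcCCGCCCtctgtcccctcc
Insig1 (chr5:28071162-28071461, + strand): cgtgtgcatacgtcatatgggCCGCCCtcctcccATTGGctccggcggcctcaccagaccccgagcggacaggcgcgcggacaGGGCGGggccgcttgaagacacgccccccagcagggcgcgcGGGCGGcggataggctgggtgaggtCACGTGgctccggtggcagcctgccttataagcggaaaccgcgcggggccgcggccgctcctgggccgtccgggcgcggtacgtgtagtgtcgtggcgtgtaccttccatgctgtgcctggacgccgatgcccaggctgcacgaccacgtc
Tm7sf2 (chr19:6067801-6068100, - strand): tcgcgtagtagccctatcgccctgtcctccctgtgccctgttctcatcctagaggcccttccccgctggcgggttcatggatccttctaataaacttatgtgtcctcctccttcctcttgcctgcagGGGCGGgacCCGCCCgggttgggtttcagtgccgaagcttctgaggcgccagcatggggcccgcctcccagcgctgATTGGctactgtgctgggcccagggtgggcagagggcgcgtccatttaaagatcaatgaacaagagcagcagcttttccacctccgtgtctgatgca
Fasn (chr11:120824498-120824797, - strand): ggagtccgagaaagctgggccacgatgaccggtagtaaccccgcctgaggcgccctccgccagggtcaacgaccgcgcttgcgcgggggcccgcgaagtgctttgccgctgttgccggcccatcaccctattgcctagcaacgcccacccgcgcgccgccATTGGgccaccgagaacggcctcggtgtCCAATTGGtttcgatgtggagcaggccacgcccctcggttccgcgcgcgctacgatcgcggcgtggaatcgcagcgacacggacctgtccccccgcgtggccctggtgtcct
The Hmgcs1 window held 1 sterol regulatory element, 4 CCAAT boxes and 3 GC boxes, and that of Insig1 held 1 CCAAT box, 3 GC boxes and 1 E-box. Tm7sf2 had 1 CCAAT box and 2 GC boxes, and Fasn had 3 CCAAT boxes, a pair of which overlap. Across the members the CCAAT box was present in 22 of 28 (78.6%), compared with 41.1% of the 27025 genes with a window and 43.1% of those that were also tested here. The GC box was present in 23 of 28 (82.1%), compared with 38.2% of all and 69.0% of the tested genes. The E-box was present in 6 (21.4%), namely Hsd17b7, Sc5d, Dhcr7, Scap, Insig1 and Elovl5, compared with 8.09% and 11.5%. The sterol regulatory element was present in 1 (3.57%), compared with 1.44% and 1.38%. These are matches of letters in a short window and were not tested.

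Compared per length, as TPM, the members spanned a wide range. In WT cells the most abundant was Scd2, a stearoyl-CoA desaturase that makes monounsaturated fatty acids, with 729.7 ± 167 TPM (SD, n = 4). It was followed by the fatty acid desaturases Fads2 with 371 ± 63.8 and Fads1 with 155 ± 38.6 TPM, and then by Hmgcs1, the synthase before the step that yields mevalonate, with 119.8 ± 11.6 TPM. At the other end stood the sterol enzymes Ebp with 6.07 ± 0.876 TPM and Hsd17b7 with 5.62 ± 1.34 TPM, and the spreads of these neighbours overlap. In vehicle-treated Ncf1-/- cells the lowest was the elongase Elovl7 with 0.472 ± 0.0888 TPM, compared with 8.85 ± 4.23 TPM in WT.

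The first comparison asks how the loss of Ncf1 changes these genes. Of the 18 sterol enzymes, 8 were called higher and 3 lower in Ncf1-/- than in WT NSCs, with a median log2 fold change of 0.20, and of the 11 fatty acid enzymes, 1 was called higher and 7 lower, with a median of -0.39. Over the 35 members this made 12 called higher and 12 lower, where 28.9% of all genes tested were called higher and 28.2% lower, and a median of 0.08, where that of all genes was 0.02. For 10 members the 4 Ncf1-/- libraries all lay above the 4 WT libraries, and for 11 they all lay below, while this was so for 26.1% and 25.0% of all genes. The shares of members called, 12 of 35 each way, are near those of the genes at large, and the difference between the pathways was not tested.

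**Figure D1:**
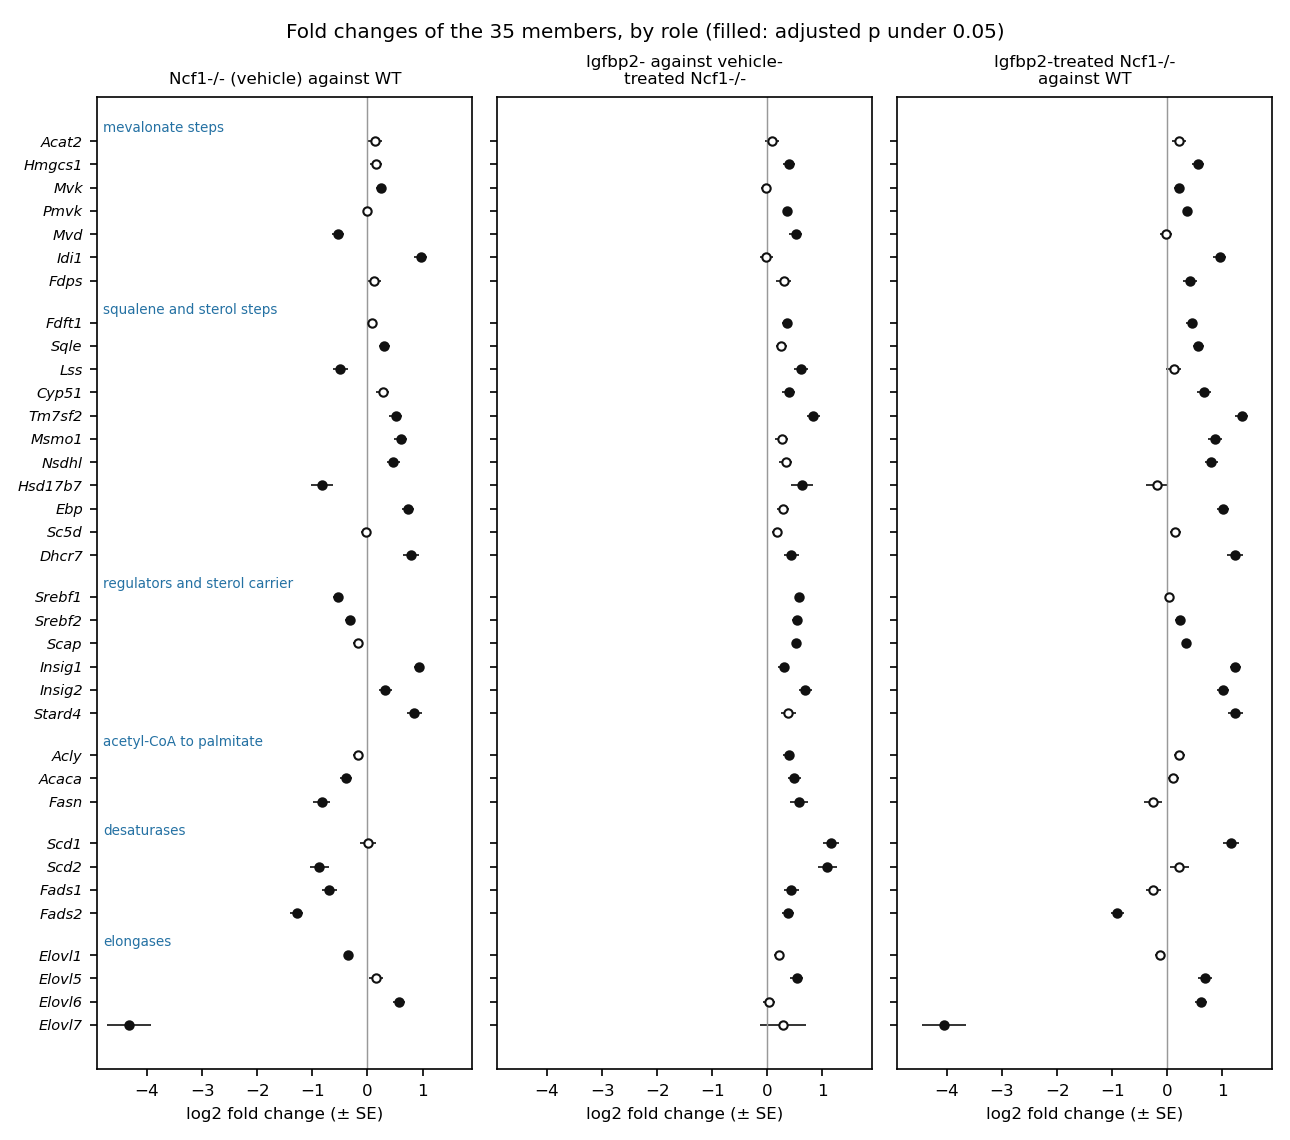
The log2 fold change (x axis, with its SE) of each of the 35 members, ordered by role, in the 3 comparisons, where filled points were called by edgeR. In the first panel 12 points are called to the right of 0 and 12 to the left, with Elovl7 at -4.33, and in the second 22 are called to the right and 0 to the left.

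In the mevalonate steps the largest rise was that of Idi1 (chr13:8885501-8892451, + strand), the isomerase that makes the building blocks of isoprenoids interconvertible. Idi1 stood at 87.3, 93.2, 100.3 and 112 CPM in libraries 1 to 4 and at 60.3, 45.5, 44.5 and 50.9 CPM in WT. The groups did not overlap, and the log2 fold change was 0.97 (SE 0.12, adjusted p = 1.69e-05 in edgeR). Mvk, the mevalonate kinase, was called higher by a small margin of 0.24 (SE 0.09, adjusted p = 0.0303 in edgeR), with overlapping groups, and this call was lost without WT library 12 (adjusted p = 0.0799) and without each of libraries 1, 2, 3, 5, 6, 7, 10 and 11 (0.0542 to 0.114). Mvd, the decarboxylase that follows the kinases, was lower by contrast, with 31.2, 35.3, 33.9 and 30.9 CPM in Ncf1-/- and 50.9, 42.7, 39.0 and 57.2 CPM in WT. Its groups did not overlap either, and its log2 fold change was -0.53 (SE 0.11, adjusted p = 0.00124 in edgeR). Acat2, Hmgcs1, Pmvk and Fdps were not called, with log2 fold changes between -0.01 and 0.16. Hmgcs1 (chr13:119690379-119708260, + strand) stood at 505, 545, 582 and 649 CPM in Ncf1-/- and 556, 485, 446 and 554 CPM in WT, so that the groups overlapped (log2 fold change 0.16, SE 0.11, adjusted p = 0.214 in edgeR).

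In the squalene and sterol steps 6 of 11 genes were called higher. They were Sqle, Tm7sf2, Msmo1, Nsdhl, Ebp and Dhcr7, with log2 fold changes of 0.31 for Sqle to 0.79 for Dhcr7, the reductase of the last step to cholesterol. Sqle (chr15:59315077-59331192, + strand), the squalene epoxidase, stood at 114, 125, 127 and 149.7 CPM in Ncf1-/- and 110.1, 101, 99.6 and 106 CPM in WT. All 4 Ncf1-/- values were above all WT values (log2 fold change 0.31, SE 0.10, adjusted p = 0.0172 in edgeR), but the call was lost without vehicle-treated library 4 (adjusted p = 0.0965) and without WT library 10 (0.0619). Tm7sf2 (chr19:6062821-6068373, - strand), a sterol reductase, rose from 26.3, 18.8, 22.5 and 25.7 CPM in WT to 33.8, 33.2, 37.0 and 29.4 CPM in Ncf1-/-, without overlap (0.51, SE 0.12, adjusted p = 0.00203 in edgeR). Lss, which closes the ring of lanosterol, and Hsd17b7, a ketoreductase of sterol demethylation, were lower in Ncf1-/- cells, by a log2 fold change of -0.49 (SE 0.13, adjusted p = 0.00606 in edgeR) and -0.82 (SE 0.20, adjusted p = 0.00352 in edgeR). Fdft1, Cyp51 and Sc5d were not called.

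The regulators were split. Srebf1 (chr11:60199089-60222581, - strand) stood at 286, 298, 286 and 298 CPM in libraries 1 to 4 and at 384, 464, 427 and 422 CPM in WT, and Srebf2 (chr15:82147181-82205379, + strand) at 257, 282, 285 and 309 CPM against 345, 354, 315 and 389 CPM. Both were lower in every Ncf1-/- library than in any WT library. Their log2 fold changes were -0.54 for Srebf1 (SE 0.08, adjusted p = 6.93e-05 in edgeR) and -0.31 for Srebf2 (SE 0.09, adjusted p = 0.0101 in edgeR). Insig1 (chr5:28071363-28078662, + strand) was higher, with 206, 215, 218 and 234 CPM in Ncf1-/- and 119, 95.7, 111 and 130.3 CPM in WT (0.94, SE 0.10, adjusted p = 4.84e-06 in edgeR). Stard4, a carrier of sterols between membranes, was higher as well, with 45.4, 48.3, 56.0 and 62.9 CPM in Ncf1-/- and 28.3, 23.7, 29.1 and 37.0 CPM in WT (0.85, SE 0.14, adjusted p = 0.000149 in edgeR). Neither Insig1 nor Stard4 overlapped between the groups. Insig2 was called higher, at 0.32 (SE 0.11, adjusted p = 0.0279 in edgeR), with overlapping groups, and the call was lost without any 1 of libraries 1, 4, 9 and 10 (adjusted p from 0.0549 to 0.126). Scap was not called.

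Among the fatty acid enzymes, Fasn (chr11:120805846-120824547, - strand), the synthase that assembles palmitate, stood at 506, 599.6, 487 and 773 CPM in Ncf1-/- and at 975, 1103, 1069.7 and 1064 CPM in WT. The groups did not overlap, and the log2 fold change was -0.83 (SE 0.16, adjusted p = 0.000631 in edgeR). Acaca, which makes malonyl-CoA, was called lower as well (-0.39, SE 0.11, adjusted p = 0.00875 in edgeR), and Acly was not. Scd2 (chr19:44293674-44306864, + strand) stood at 2341, 2731, 2812 and 3734 CPM in Ncf1-/- and at 4747, 4958, 4833 and 6697 CPM in WT, the last value being that of library 12. Its log2 fold change was -0.87 (SE 0.17, adjusted p = 0.000752 in edgeR), and -0.77 (edgeR adjusted p = 0.00134) without library 12. Fads2 (chr19:10062765-10101746, - strand), which introduces the first of the extra double bonds of polyunsaturated fatty acids, stood at 283, 281, 289 and 279 CPM in Ncf1-/- and 666, 787, 524 and 788 CPM in WT. Its libraries were close together in Ncf1-/- and far apart in WT, and its log2 fold change was -1.29 (SE 0.12, adjusted p = 1.34e-06 in edgeR). Fads1 was lower by -0.69 (SE 0.13, adjusted p = 0.000707 in edgeR). Scd1 (chr19:44394455-44407879, - strand), the close relative of Scd2, showed 364, 382, 413 and 488 CPM in Ncf1-/- and 411, 329.7, 363 and 539 CPM in WT, and was not called (0.00, SE 0.14, adjusted p = 0.983 in edgeR).

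The elongases had the largest difference of all members. Elovl7 (chr13:108214404-108285683, + strand), which lengthens saturated and other long fatty acids, stood at 3.05, 3.68, 3.0 and 3.62 CPM in vehicle-treated Ncf1-/- and at 95.8, 95.5, 20.4 and 57.1 CPM in WT libraries 9, 10, 11 and 12. Its log2 fold change was -4.33 (SE 0.40, adjusted p = 1.85e-06 in edgeR), and no library of one group reached those of the other. Elovl1 was called lower (-0.34, SE 0.08, adjusted p = 0.00354 in edgeR) and Elovl6 higher (0.57, SE 0.11, adjusted p = 0.000651 in edgeR), and Elovl5 was not called (0.16, SE 0.12, adjusted p = 0.292 in edgeR), although it was called higher without WT library 12 (adjusted p = 0.0303). Without that library the members called were again 12 higher and 12 lower, with Elovl5 in place of Mvk, and of all 15992 genes tested 4290 were called higher and 4554 lower.

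Markers of oligodendrocytes differed between the genotypes and within WT. Of 15 oligodendrocyte and myelin genes, 13 were called lower and 2, the lineage transcription factors Olig1 and Olig2, higher in Ncf1-/- than in WT NSCs. Their summed CPM was 12284, 12646, 3501 and 7768 in WT libraries 9, 10, 11 and 12, and between 2121 and 2294 in the vehicle-treated and 2126 and 2230 in the Igfbp2-treated libraries (exact permutation p = 0.0286 between vehicle-treated Ncf1-/- and WT, the smallest that 4 libraries against 4 can give, adjusted p = 0.0653 over 16 tests of marker lists). The WT library with the fewest markers, library 11, also had the lowest WT value of 22 of the 35 members, among them Elovl7, Fads2, Fads1, Elovl1 and Hsd17b7, which were called lower in Ncf1-/- cells, and Idi1, Sqle, Msmo1, Nsdhl, Ebp and Elovl6, which were called higher. It also stood apart in neural stem and progenitor markers, with a summed CPM of 7970 against 2456 to 3741 in the other WT libraries, and in Vim, with 4569 against 626 to 1528 CPM. Defining markers of myelinating cells were near 0 in Ncf1-/- cells, with Mag at 0.112 to 0.261 CPM and Enpp6 at 0.336 to 0.883 CPM in the vehicle-treated libraries, and were present in every WT library, with 34.2 to 305 and 90.3 to 456 CPM. Other lists differed between the genotypes with the same exact permutation p of 0.0286 (adjusted p = 0.0653). Astrocyte markers had a summed CPM from 7359 to 13139 in WT and 3246 to 3800 in vehicle-treated Ncf1-/-, oligodendrocyte precursor markers 3368 to 4336 and 1342 to 1861, neuronal markers 672 to 1074 and 512 to 581, and proliferation genes 334 to 617 and 1398 to 1824. Summed neural stem and progenitor markers averaged 4184 CPM in WT and 7893 CPM in Ncf1-/- (exact permutation p = 0.114, adjusted p = 0.152). Gene by gene, most of this list went the other way. Of its 8 genes 5 were called lower, among them Sox2 (-0.97, adjusted p = 3.39e-07 in edgeR). Only 2 were called higher, Nes (1.92, adjusted p = 0.000628 in edgeR) and Fabp7 (0.96, adjusted p = 0.00177 in edgeR). This list had a median of -0.69 on the log2 scale. In a bulk sample fewer cells of a type and less RNA per cell cannot be told apart, and the part of these cell types in the differences of the members was not tested.

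**Figure D2:**
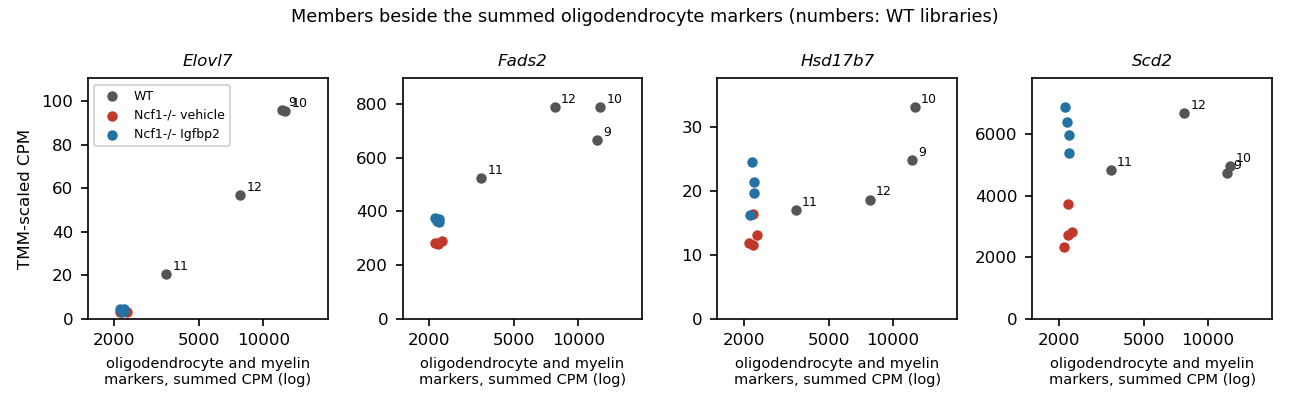
CPM of Elovl7, Fads2, Hsd17b7 and Scd2 in each of the 12 libraries (y axis) against the summed CPM of 15 oligodendrocyte and myelin markers (x axis, log scale), with WT libraries numbered. In WT, Elovl7 runs from 20.4 CPM in library 11 to 95.8 CPM in library 9, and all Ncf1-/- libraries sit at the lower left for this gene. Most of the marker sum in Ncf1-/- libraries is Olig1 and Olig2.

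The direction of the genotype difference held for most members under every alternative setting. Over 22 settings, which took in other scalings, the deposited TPM and each library left out in turn, 17 members stayed above 0 and 12 stayed below 0, among them every member called by edgeR. The counts of calls depended more on the setting: library totals in place of TMM factors gave 17 members higher and 8 lower, library totals without the 5 short structural RNAs gave 17 and 9, limma on log2(TPM + 1) gave 8 and 7, and limma on TPM rescaled without these RNAs gave 8 and 14. Over all genes the same settings gave 6024 higher and 3159 lower, 5990 and 3283, 3754 and 2905, and 3437 and 4956.

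The second comparison asks what Igfbp2 changes in Ncf1-/- cells. Of 35 members, 33 lay above 0 on the log2 scale, and 22 were called higher and 0 lower in Igfbp2-treated than in vehicle-treated Ncf1-/- NSCs, where 14.2% of all genes tested were called higher and 10.7% lower. The edgeR test at an unadjusted p under 0.05 and DESeq2 also called 0 members lower. The median log2 fold change of the members was 0.38 and that of all genes 0.04. For 19 members the 4 treated libraries all lay above the 4 vehicle-treated libraries, and for 0 they all lay below, while this was so for 19.3% and 14.7% of all genes. By role, 3 of 7 mevalonate enzymes, 6 of 11 enzymes of the squalene and sterol steps, 5 of 6 regulators and carriers, all 3 enzymes from acetyl-CoA to palmitate, all 4 desaturases and 1 of 4 elongases were called higher.

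These counts rest on the scaling and on the number of libraries. The median of all genes moved from 0.04 with TMM factors to -0.23 with library totals and to -0.30 with limma on log2(TPM + 1), and the members moved with it. With library totals 5 members were called higher and 1 lower, where 648 of all 15706 genes were called higher and 5258 lower. With limma on log2(TPM + 1) 2 members were called higher and 2 lower, where 200 of all genes were called higher and 6154 lower. In each of these scalings most members stood above the median gene. The members' medians were 0.11 and -0.09, and 33 and 31 of 35 lay above the median of all genes, compared with 32 of 35 with TMM factors. A scaling factor moves all genes of a library alike, so that the members' place against the median gene was nearly fixed. It is a description and not separate support from each scaling. With the 5 short structural RNAs left out of the library totals, a setting chosen after seeing the data, the median of all genes was -0.15 and that of the members 0.19, and 10 members were called higher and 0 lower. Of all genes 948 were called higher and 3784 lower in that setting. In this comparison 11 members stayed above 0 under all 23 settings (Mvd, Tm7sf2, Hsd17b7, Srebf2, Scap, Insig2, Acaca, Fasn, Scd1, Scd2 and Elovl5). The number called higher was 12 to 14 when any 1 of libraries 1, 2, 3, 5, 6 and 7 was left out (13 without each of libraries 1, 2, 3 and 6, 14 without library 5 and 12 without library 7), 26 without vehicle-treated library 4, and 22 without WT library 12. Over all genes it was 1202 to 1581, 2434 and 2141 in these fits. Directions given below are those with TMM factors, relative to a gene of median change.

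**Figure D3:**
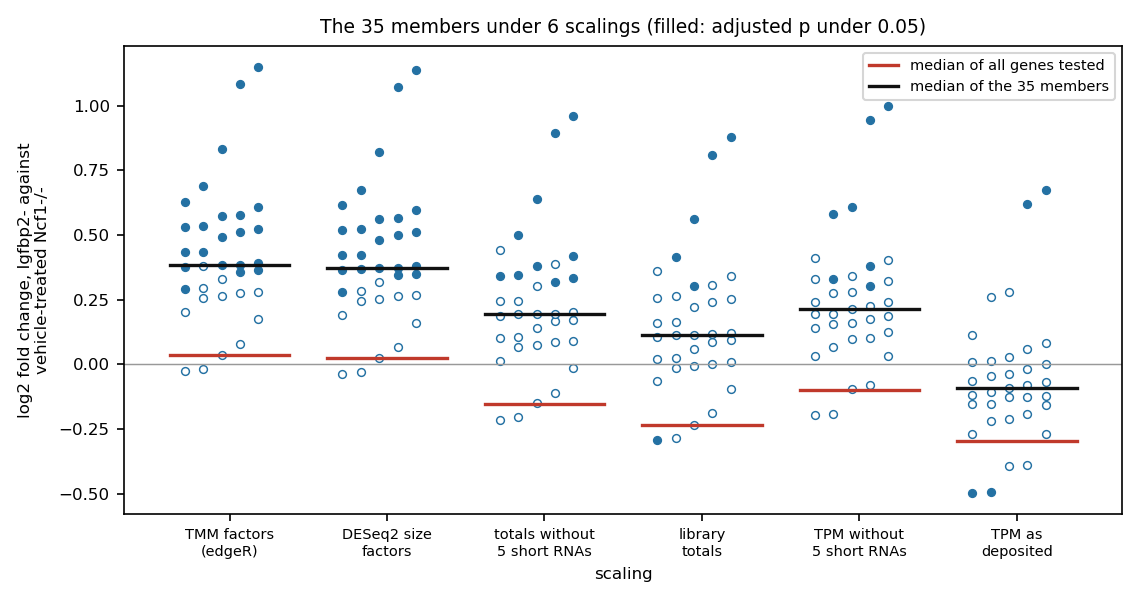
Log2 fold changes of the 35 members between Igfbp2-treated and vehicle-treated Ncf1-/- NSCs (y axis) under 6 scalings (x axis), where filled points had an adjusted p under 0.05, black lines mark the median of the members and red lines that of all genes tested. The members' median lies above that of all genes under each scaling, at 0.38 against 0.04 with TMM factors and at -0.09 against -0.30 for TPM as deposited. Scaling factors move all genes of a library alike, so that this order is not a separate result for each scaling.

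The desaturases rose most. Scd1 stood at 364, 382, 413 and 488 CPM in libraries 1 to 4 and at 849.8, 900.4, 963 and 945 CPM in libraries 5 to 8, a 2.22-fold rise (log2 fold change 1.15, SE 0.14, adjusted p = 0.000658 in edgeR). Scd2 rose 2.12-fold, from 2341, 2731, 2812 and 3734 CPM to 5377, 5986, 6397 and 6871 CPM (log2 fold change 1.08, SE 0.17, adjusted p = 0.00162 in edgeR). For both, every treated value was far above every vehicle value. They were the only members also called higher with limma on log2(TPM + 1), with log2 fold changes of 0.67 for Scd1 and 0.62 for Scd2, and both calls held without each of the 12 libraries. Scd2 had fractional counts in 12 of 12 libraries and Scd1 in 11 of 12, so that a part of their reads was shared with another gene and was divided between genes by RSEM. Fads2 stood at 283, 281, 289 and 279 CPM and then at 359.8, 373, 366 and 374 CPM, without overlap (0.38, SE 0.11, adjusted p = 0.0297 in edgeR), and Fads1 had a log2 fold change of 0.44 (SE 0.13, adjusted p = 0.0325 in edgeR). The call of Fads2 was lost when any 1 of libraries 1, 2, 3, 5, 6, 7 and 8 was left out (adjusted p from 0.0691 to 0.112), and that of Fads1 without these or library 10 (0.0565 to 0.111). With limma on log2(TPM + 1) the log2 fold change was -0.108 for Fads2 and -0.044 for Fads1.

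From acetyl-CoA to palmitate, Fasn rose from 506, 599.6, 487 and 773 CPM to 725, 996, 1050.1 and 759 CPM. Treated libraries 5 and 8 lay below vehicle library 4, so that the groups overlapped, and the log2 fold change was 0.58 (SE 0.16, adjusted p = 0.0209 in edgeR). The call was lost without any 1 of libraries 1, 2, 3, 6 and 7 (adjusted p from 0.0526 to 0.0851). Acaca and Acly were called higher with log2 fold changes of 0.49 (SE 0.11, adjusted p = 0.00858 in edgeR) and 0.38 (SE 0.10, adjusted p = 0.0138 in edgeR), and neither overlapped between the groups, although the Acly call was lost without library 3, 6 or 7 (adjusted p from 0.0508 to 0.0604). The elongase Elovl5 was called higher (0.53, SE 0.12, adjusted p = 0.00939 in edgeR). It stood at 167, 174, 188 and 209.5 CPM in the vehicle-treated and at 269, 262, 263 and 272 CPM in the treated libraries. Elovl1, Elovl6 and Elovl7 were not called, with log2 fold changes of 0.20, 0.04 and 0.28. Elovl7 stood at 4.54, 3.79, 3.35 and 4.52 CPM in the treated libraries.

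Both transcription factors rose. Srebf1 stood at 286, 298, 286 and 298 CPM in the vehicle-treated and at 417, 460.5, 443 and 417 CPM in the Igfbp2-treated libraries (log2 fold change 0.57, SE 0.08, adjusted p = 0.000906 in edgeR). Srebf2 stood at 257, 282, 285 and 309 CPM and at 388, 413, 446 and 394 CPM (0.53, SE 0.09, adjusted p = 0.0021 in edgeR). The groups were apart for both genes, and both calls held without each of the 12 libraries. With limma on log2(TPM + 1) the log2 fold change of Srebf1 was -0.018 and that of Srebf2 0.058. Scap rose by 0.52 (SE 0.08, adjusted p = 0.00169 in edgeR) and Insig2 by 0.69 (SE 0.11, adjusted p = 0.00188 in edgeR), the latter from between 14.7 and 18.7 CPM to between 22.9 and 29.2 CPM. Insig1 stood at 206, 215, 218 and 234 CPM and at 293, 255, 277 and 245 CPM, again without overlap, and its rise of 0.29 (SE 0.10, adjusted p = 0.0448 in edgeR) was the smallest of those called. It was lost without any 1 of libraries 1, 2, 3, 5, 6, 7, 8 and 9 (adjusted p from 0.0503 to 0.141) and turned to -0.22 with limma on log2(TPM + 1). Stard4, with 45.4 to 62.9 CPM in libraries 1 to 4 and 66.8, 69.1, 78.4 and 62.9 CPM in libraries 5 to 8, missed the threshold (0.38, SE 0.13, adjusted p = 0.0534 in edgeR), and was called without library 4, 11 or 12 (adjusted p = 0.023, 0.0465 and 0.0372).

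In the squalene and sterol steps Tm7sf2 rose most, from 33.8, 33.2, 37.0 and 29.4 CPM to 65.6, 60.9, 60.4 and 50.6 CPM, or 1.78-fold (log2 fold change 0.83, SE 0.12, adjusted p = 0.00091 in edgeR). It had fractional counts in all 12 libraries, so that reads were shared with another gene. Lss and Hsd17b7 were called higher with log2 fold changes of 0.61 (SE 0.13, adjusted p = 0.00681 in edgeR) and 0.63 (SE 0.20, adjusted p = 0.0377 in edgeR), and Fdft1, Cyp51 and Dhcr7 with 0.36 to 0.44. Calls among these were lost when 1 library was left out: that of Cyp51 without library 1, 2, 3, 5, 6, 7, 10 or 12 (adjusted p from 0.0535 to 0.135), that of Dhcr7 without library 1, 2, 3, 5, 6 or 7 (0.0846 to 0.135), that of Hsd17b7 without the same libraries (0.0911 to 0.141) and that of Fdft1 without library 1, 2, 5 or 7 (0.056 to 0.0646). Sqle stood at 114, 125, 127 and 149.7 CPM and at 153, 153, 175 and 135 CPM, with library 8 below library 4, and was not called (0.26, SE 0.10, adjusted p = 0.0724 in edgeR), but was without library 4 (adjusted p = 0.0166). Msmo1, Nsdhl, Ebp and Sc5d were not called, with log2 fold changes from 0.17 to 0.33. In these steps library 8 was the lowest treated library for each of Sqle, Lss, Cyp51, Tm7sf2, Msmo1, Nsdhl, Hsd17b7, Ebp, Sc5d, Dhcr7 and Fdft1.

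Of the mevalonate enzymes, Hmgcs1 stood at 505, 545, 582 and 649 CPM in the vehicle-treated and at 775, 719, 809 and 692 CPM in the treated libraries. The groups did not overlap (log2 fold change 0.39, SE 0.11, adjusted p = 0.019 in edgeR), the call was lost without any 1 of libraries 1, 2, 3, 5, 6 and 7 (adjusted p from 0.0556 to 0.0758), and the value was -0.081 with limma on log2(TPM + 1). Pmvk and Mvd were called higher (0.36, SE 0.08, adjusted p = 0.00749 in edgeR and 0.51, SE 0.11, adjusted p = 0.00713 in edgeR), both without overlap. Idi1, which had the largest rise among members between the genotypes, stood at 87.3 to 112 CPM without Igfbp2 and at 106, 88.6, 108 and 86.3 CPM with it (-0.02, SE 0.12, adjusted p = 0.933 in edgeR). Mvk, Acat2 and Fdps were not called, with log2 fold changes of -0.03, 0.08 and 0.30.

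**Figure D4:**
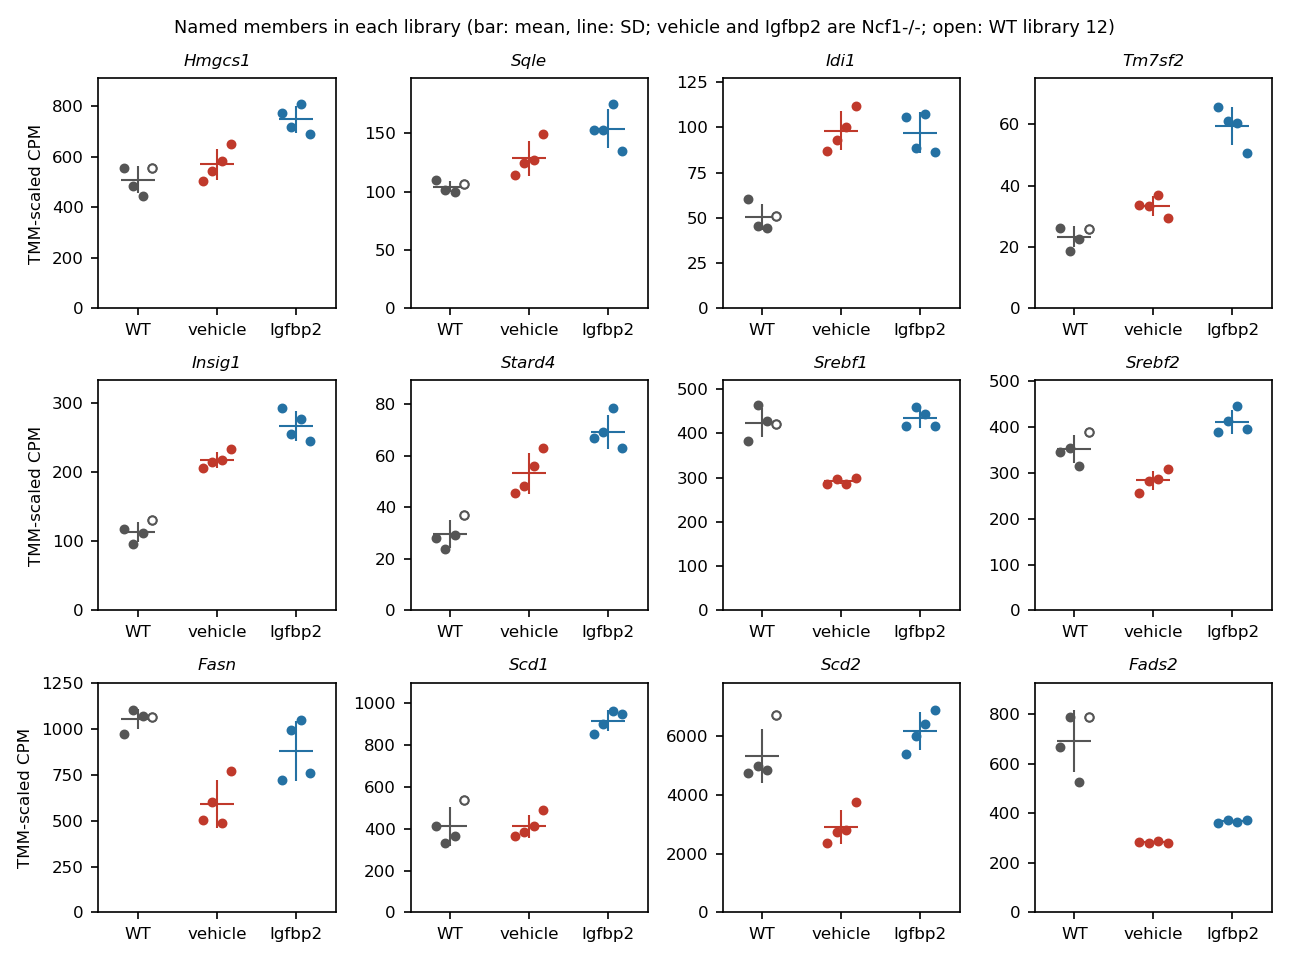
TMM-scaled CPM (y axis, from 0) of 12 members in each library of the 3 groups, with the mean as a horizontal and the SD as a vertical line, and WT library 12 as an open point. Scd1 lies at 849.8 CPM or more in the 4 Igfbp2-treated libraries and at 539 CPM or less in the other 8, and Fads2 stays below its WT values in all 8 Ncf1-/- libraries.

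Markers of other cells were compared between the treatments as well. In the Ncf1-/- libraries Olig1 and Olig2 made up 80.5% to 87.0% of the summed oligodendrocyte and myelin markers, and all treated values lay below the vehicle values for Olig1 and above them for Olig2. The sum differed by -16.5 CPM on average (exact permutation p = 0.743, adjusted p = 0.743 over the 16 tests of marker lists), and of the 15 genes edgeR called 0, with 5 at an unadjusted p under 0.05. The other 13 genes summed to 286 to 366 CPM in the vehicle-treated and 323 to 414 CPM in the treated libraries, a sum made after seeing the data. Mbp was found at 2.37 to 3.40 CPM before and 3.92 to 10.2 CPM after treatment and was not called (edgeR adjusted p = 0.0852). Microglia markers summed to 2.13 CPM or less in every library. Mesenchymal, pericyte and endothelial markers summed to 9.67 to 11.6 CPM in the vehicle-treated and 21.2 to 25.2 CPM in the treated libraries (exact permutation p = 0.0286, adjusted p = 0.0653), and neuronal markers to 512 to 581 and 469 to 502 CPM, with the same p-values. Map2 alone made up 480 CPM of the mean vehicle-treated neuronal sum of 535 CPM, and it was not called (-0.18). By edgeR the neuronal genes Dcx (-0.83) and Tubb3 (-0.61) and the progenitor gene Hes5 (-1.48) were called lower, and the precursor gene Cspg4 (0.95) was called higher. Gene by gene the neuronal list was mixed, with 6 of 10 above 0, a median of 0.16 and 0 called higher. For 3 neuronal genes every treated library exceeded every vehicle-treated library, and for 3 the reverse held. Of the 5 precursor genes 3 lay above 0, with a median of 0.30 for the list. The precursor genes Pdgfra (-0.33) and Lhfpl3 (-0.25) lay below 0 and were not called. Of the 8 progenitor genes 1 was called higher, and the median of the progenitor list was 0.01. Of the 6 mesenchymal, pericyte and endothelial genes tested 3 were called higher and 0 lower, with log2 fold changes in the list from 0.28 to 2.02. The part of these changes in the rises of the members was not tested. The share of all counts held by the 35 members was 0.772% to 1.09% in the vehicle-treated, 1.13% to 1.41% in the Igfbp2-treated and 1.06% to 1.33% in the WT libraries.

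The third comparison sets the treated Ncf1-/- cells against WT, and shares its libraries with the first 2, so that the values are set side by side. Here 21 members were called higher and 2 lower, where 31.6% of all genes tested were called higher and 30.8% lower, and the median was 0.36 against -0.01 for all genes. Without WT library 12 the counts were 19 and 2, with Mvk and Srebf2 no longer called. With limma on log2(TPM + 1) they were 8 and 8, and on TPM rescaled without the 5 short structural RNAs 12 and 8. Over all genes these settings gave 4570 higher and 5386 lower, 1969 and 6890, and 3071 and 6828. The calls of Srebf2 and Mvk were also lost without most other single libraries (adjusted p up to 0.328 for Srebf2 and 0.324 for Mvk), and that of Fdps without library 5, 6, 7 or 10 (0.056 to 0.103). With TMM factors, genes that were lower in Ncf1-/- than in WT cells and higher with Igfbp2 stood near WT in the treated libraries in several cases. Fasn was at -0.83 between Ncf1-/- and WT, 0.58 between the treatments and -0.26 (SE 0.16, adjusted p = 0.179 in edgeR) between treated Ncf1-/- and WT. For Scd2 the 3 values were -0.87, 1.08 and 0.21 (SE 0.17, adjusted p = 0.291 in edgeR), and for Srebf1 -0.54, 0.57 and 0.03 (SE 0.08, adjusted p = 0.719 in edgeR). Mvd, Lss, Hsd17b7, Acaca and Fads1 were likewise not called between treated Ncf1-/- and WT cells, with log2 fold changes from -0.25 to 0.12, while a p that misses the threshold does not show that the groups were alike. With limma on log2(TPM + 1) the value of Fasn against WT was -0.72 (limma adjusted p = 0.0203) and that of Srebf1 -0.41 (limma adjusted p = 0.0476). Over the 22 alternative settings Fads1 was called lower than WT in 5, Hsd17b7 and Mvd in 3 each, and Lss and Acaca in 0. The values reached down to -0.68 for Fads1, -0.68 for Hsd17b7 and -0.44 for Mvd.

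Other members ended farther from WT. Scd1 was at 0.00, 1.15 and 1.15 (SE 0.14, adjusted p = 1.87e-05 in edgeR) in the 3 comparisons, Tm7sf2 at 0.51, 0.83 and 1.35 (SE 0.12, adjusted p = 9.95e-07 in edgeR), Stard4 at 0.85, 0.38 and 1.23 (SE 0.14, adjusted p = 7.07e-06 in edgeR), Insig1 at 0.94, 0.29 and 1.23 (SE 0.10, adjusted p = 5.99e-07 in edgeR) and Dhcr7 at 0.79, 0.44 and 1.23 (SE 0.14, adjusted p = 9.84e-06 in edgeR). In treated cells Tm7sf2 was 2.54-fold its WT level, and Stard4 and Insig1 were each 2.35-fold theirs. The 2 members that stayed below WT were Fads2, at -1.29, 0.38 and -0.91 (SE 0.11, adjusted p = 1.94e-05 in edgeR), and Elovl7, at -4.33, 0.28 and -4.05 (SE 0.40, adjusted p = 2.85e-06 in edgeR). For both, all treated libraries lay below all WT libraries, at 359.8 to 374 against 524 to 788 CPM for Fads2 and at 3.35 to 4.54 against 20.4 to 95.8 CPM for Elovl7.

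Other genes of lipid metabolism were described by lists, to be read beside the shares of all genes called, 14.2% higher and 10.7% lower between the treatments and 28.9% and 28.2% between the genotypes. Between the treatments, 5 of 15 genes of fatty acid activation, chain elongation and glycerolipid entry were called higher and 0 lower. The largest rises were those of Acss2, which makes acetyl-CoA from acetate, from between 37.4 and 47.3 CPM to between 112 and 129 CPM (1.52, edgeR adjusted p = 0.000265), and of Lpin1, a phosphatidate phosphatase, from between 94.6 and 115 CPM to between 171 and 202 CPM (0.91, edgeR adjusted p = 0.000854). Of 12 genes of fatty acid oxidation 5 were called higher and 0 lower, led by Cpt1a (0.79, edgeR adjusted p = 0.00107), which admits fatty acids to mitochondria. Sterol transport, efflux and storage had 2 of 10 higher (Abca1 at 0.73 and Osbp at 0.31) and 1 lower (Stard3 at -0.33), and the isoprenoid branch had 1 of 7 higher (Fntb at 0.36) and 0 lower. The rises in these lists depended on the scaling. With library totals, activation had 3 higher and 3 lower, oxidation 1 and 2, transport 0 and 1 and the isoprenoid branch 0 and 3, and with limma on log2(TPM + 1) the counts were 1 and 3, 0 and 4, 0 and 1 and 0 and 2. Over all 15706 genes these settings gave 648 higher and 5258 lower, and 200 and 6154. Between Ncf1-/- and WT, 0 of the 10 transport genes were called higher and 5 lower, with the cholesterol exporters Abca1 at -1.58 (edgeR adjusted p = 6.26e-05) and Abcg1 at -0.94 (edgeR adjusted p = 0.00234) as the largest falls. Of the isoprenoid branch 4 were higher (largest Pdss1 at 1.21 and Coq2 at 0.64) and 1 lower (Fntb at -0.63). Fatty acid activation and its associated steps had 5 higher (largest Acsl5 at 1.49 and Acsl4 at 1.33) and 6 lower (largest Acsl1 at -1.52 and Gpam at -1.25), and fatty acid oxidation had 5 higher (largest Acadl at 1.19 and Hadhb at 0.63) and 4 lower (among them Cpt1a at -0.34). With library totals the counts higher and lower were 2 and 3 for transport, 4 and 1 for the isoprenoid branch, 6 and 3 for activation and 5 and 1 for oxidation, and with limma on log2(TPM + 1) they were 0 and 3, 4 and 1, 4 and 3 and 3 and 1. Over all 15706 genes these settings gave 6024 higher and 3159 lower, and 3754 and 2905.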

How the data were processed

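RNA depleted of ribosomal RNA from 12 NSC cultures was sequenced by the authors, who mapped the reads to GRCm38 with Bowtie2 and quantified each gene with RSEM (versions not given in the sources used here). The deposited tables hold expected counts, estimated by RSEM for each gene and library, together with TPM and FPKM, of which the FPKM were not used. A merged table of the deposited TPM is a score, since each of its 257083 values above 0 equals the TPM multiplied by the gene's number of transcripts within 1%, and it was used only for gene symbols. No per-library column was left without a sample.

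Expected counts were rounded to whole numbers (15.9% were not whole) and tested with edgeR 4.0.16 in R 4.3.3: genes kept by filterByExpr, TMM factors, a mean per group over all 12 libraries, quasi-likelihood test, two-sided, Benjamini-Hochberg adjustment over 15706 genes. These differ from the one-way test on TPM in the methods, which was run as an alternative, as were DESeq2 1.42.0 and limma 3.58.1 on log2(TPM + 1) and log2(TPM + 0.1), other scalings, no filter, a threshold of 0.01, a preparation block and each library left out. The script was tested on simulated data. Depth per library was 18201622 to 34086554 counts, which gave a median SE of 0.14 on the log2 scale. The members and gene lists were chosen with earlier results of these data known. Values in every library are given for Hmgcs1, Sqle, Insig1, Srebf1, Srebf2, Fasn, Scd1 and Scd2 and for the 3 largest called rises and falls between the genotypes and between the treatments, a range standing where they are repeated, and Mvd and Elovl5 were added after their values were seen. Other pathway genes are given by counts with at most the 2 largest called changes each way. Gene coordinates are those of GENCODE mouse release 21 on GRCm38. Some genes of these pathways are not reported here.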

Additional observations from a re-analysis of the deposited data

Results flagged for a closer look

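In 3 of 105 sets of 4 libraries (35 members in 3 groups), 1 library stood apart from the other 3 by more than Dixon's 95% critical ratio, where chance gives about 1 set in 20. Mvk stood at 39.9 CPM in vehicle-treated library 4 and at 45.7 to 46.3 CPM in the other vehicle-treated libraries. Acly stood at 274 CPM in WT library 11 and at 289.9 to 292 CPM in the other WT libraries. Scd2 stood at 6697 CPM in WT library 12, the library whose label is in doubt, and at 4747 to 4958 CPM in the other WT libraries.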

How the results depend on the processing

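For the members, settings on TPM moved the counts of calls most. Between Ncf1-/- and WT cells, 7 members were called lower with limma on log2(TPM + 1) and on log2(TPM + 0.1), and the one-way test on TPM called 2 higher and 2 lower. Of all genes, limma called 2905 and 2805 lower, and the one-way test called 2270 of 27879 higher and 2058 lower. Between the treatments, members called higher numbered 5 with library totals (1 lower), 10 with totals without the 5 short structural RNAs, 12 at a threshold of 0.01, 2 with limma at either pseudocount (2 lower), 7 with limma on TPM rescaled without those RNAs and 0 with the one-way test. Of all genes, those called higher in these settings numbered 648 (5258 lower), 948, 884, 200 and 165 with the limma pseudocounts (6154 and 6354 lower), 711 and 64. Between treated Ncf1-/- and WT cells, members called lower numbered 4 with library totals and 8 with each of the limma settings, and members called higher 8 with limma at either pseudocount, 12 on rescaled TPM and 1 with the one-way test. Of all genes, 5475 were called lower with library totals and 6828 to 7009 with the limma settings. Those called higher numbered 1969 and 2038 with the limma pseudocounts, 3071 on rescaled TPM and 965 with the one-way test. The cause of these changes was not tested. Both settings without the short RNAs were chosen after seeing the data.

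Leaving out 1 library gave members called higher of 9 to 13 between Ncf1-/- and WT (12 to 14 lower), 12 to 26 between the treatments (0 lower) and 18 to 21 between treated Ncf1-/- and WT (2 to 4 lower, 4 without library 7 or 11). Of all genes, these fits called 3956 to 4907 higher (4110 to 4727 lower), 1202 to 2863 (1021 to 2088) and 4218 to 5207 (4581 to 5386). Of the 2345 values of single members under all alternatives, 1821 kept direction and side of the threshold, 291 lost the call, 63 gained one, 119 changed sign without a call, and 51 called values changed sign. Changes of sign without a call also arose in edgeR fits that left out 1 library, as for Scd1 between the genotypes (-0.126 to 0.128).

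The changes of sign of called values arose with TPM and are given for log2(TPM + 1), log2(TPM + 0.1) and the one-way test in turn. Between the treatments they were -0.123, -0.126 and -0.092 for Acly, -0.091, -0.094 and -0.074 for Cyp51, -0.039, -0.040 and -0.019 for Dhcr7, -0.044, -0.044 and -0.045 for Fads1, -0.108, -0.109 and -0.095 for Fads2, -0.121, -0.126 and -0.112 for Fdft1, -0.081, -0.082 and -0.077 for Hmgcs1, -0.220, -0.223 and -0.214 for Insig1, -0.067, -0.074 and -0.024 for Lss, -0.125, -0.132 and -0.108 for Pmvk, and, for limma alone, -0.018 and -0.019 for Srebf1. Between treated Ncf1-/- and WT cells they were -0.179, -0.190 and -0.159 for Mvk, -0.077, -0.082 and -0.061 for Pmvk, -0.096, -0.099 and -0.092 for Scap, -0.199, -0.203 and -0.18 for Srebf2, and, for limma alone, -0.0086 and -0.0094 for Fdps and -0.410 and -0.415 for Srebf1. On TPM rescaled without the short RNAs they were -0.044 for Mvk, -0.268 for Srebf1 and -0.056 for Srebf2.

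By the methods, vehicle-treated and Igfbp2-treated cultures were paired by preparation. Deviations from the group means correlated at -0.14 to 0.14 in the 4 pairs and at -0.41 to 0.44 in the 12 other combinations, so that the data do not show the pairing, and with the preparation as a block 23 members were called higher and 0 lower. Of all 15706 genes the fit with the block called 2927 higher and 2496 lower. Reads shared between genes limit Acat2, Idi1, Tm7sf2, Scap, Acaca and Scd2, which had fractional counts in 12 of 12 libraries.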
